A study of Mus musculus with 6 samples.

Results

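The autophagy core genes and Tfeb were taken as 10 named genes, chosen by symbol and covering initiation (Ulk1, Becn1), conjugation (Atg5, Atg7), the ATG8 family (Map1lc3a, Map1lc3b, Gabarap, Gabarapl1), cargo reception (Sqstm1) and transcriptional control (Tfeb). All 10 were found among the 17469 genes of the deposited count table, and all 10 passed the filter on low counts that left 12701 genes for testing. RNA-seq was measured in 6 libraries, 3 from control (OCN-Cre;Ai9) and 3 from TgAPPsweOCN;Ai9 mice, all 6 months old and untreated. Both genotypes carried the Cre recombinase driven by the osteocalcin promoter and the Ai9 reporter, which makes Cre-active cells fluoresce as tdTomato+. The TgAPPsweOCN;Ai9 mice also carried a conditional transgene for Swedish mutant human APP (APPswe) that Cre switches on. The RNA came from tdTomato+ cells sorted out of bone marrow stromal cell (BMSC) cultures, a fraction the study calls OB progenitors. The number of mice behind each library is not given in the sources used here, so the p-values measure the spread between these libraries, which may be technical in part.

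Autophagy encloses cytoplasm in a double membrane, the autophagosome, and delivers it to lysosomes for breakdown. The ULK kinase complex starts the process, a class III PI3-kinase complex containing Beclin 1 marks the growing membrane with lipid, 2 ubiquitin-like conjugation reactions attach ATG8 proteins (LC3 and GABARAP) to it, and receptors such as p62 bring in cargo. TFEB, a basic helix-loop-helix transcription factor held in the cytoplasm by mTORC1, moves to the nucleus when mTORC1 is inactive and drives genes of lysosomes and autophagy. In bone, autophagy is known for roles in osteoblast mineralisation and in the resorptive activity of osteoclasts, and in macrophages for clearing damaged organelles and engulfed material. Transcript levels do not measure the flux of the pathway.

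The libraries held 19340810 to 19801060 estimated counts in control and 21677461 to 22037840 in TgAPPsweOCN;Ai9 samples, and a floor of 3 counts corresponded to 0.136 to 0.155 CPM (counts scaled to library size). App, a single entry in which mouse and human reads cannot be told apart, was at 279 ± 3.50 FPKM (fragments scaled to transcript length and library size; mean ± SD, n = 3) in control and 330.01 ± 4.18 in TgAPPsweOCN;Ai9 libraries (log2 fold change 0.45, SE 0.0509, edgeR adjusted p = 7.87e-05). The labelled cell type was checked against its markers, and 15 myeloid markers summed to 18629 to 19466 FPKM in control libraries and 15740 to 19673 in TgAPPsweOCN;Ai9 libraries. The 15 stromal and osteoblast-lineage markers summed to 160 to 177 and 131 to 210.1 FPKM, so the myeloid sum was the larger in every library of both genotypes. The median myeloid marker was at 406.5 to 453 FPKM in control and 472 to 508 in TgAPPsweOCN;Ai9 libraries. The median stromal and osteoblast-lineage marker was at 1.62 to 2.13 and 2.32 to 4.04 FPKM. The sorted RNA is therefore named here by its gate and its source, as tdTomato+ cells of BMSC cultures, without a cell type. No member can be assigned to a cell type within it.

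Of the 10 genes, 3 rose (Atg5, Gabarap and Sqstm1), 5 fell (Ulk1, Atg7, Map1lc3a, Gabarapl1 and Tfeb) and 2 (Becn1 and Map1lc3b) did not pass an adjusted p of 0.05 in the quasi-likelihood test of edgeR, adjusted by Benjamini-Hochberg over all genes tested. Over all 12701 genes, 32.5% rose and 31.5% fell, together 64.0%, so the 8 of 10 called here stand against a background in which most genes were called. In bulk RNA, fewer cells of a type and less RNA per cell cannot be told apart, which holds for each of these genes. The median log2 fold change was -0.24 over the 10 genes and -0.02 over all genes tested, and with library size alone these were -0.46 and -0.23. By the study's double threshold, an adjusted p of at most 0.05 and a log2 fold change whose size was 1 or more, 0 of the 10 were up-regulated and 0 down-regulated in edgeR, and DESeq2 also called 0 in either direction. Of all genes tested, 8.90% were up-regulated and 9.20% down-regulated by that rule. At an unadjusted p under 0.05, the same 8 of the 10 genes passed, and 0 of those had a log2 fold change of 1 or more in size. At least the 64.0% of all genes called above also pass that looser threshold.

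These directions depend partly on scaling. TMM, edgeR's scaling to the bulk of the genes, put the median gene at -0.02, whereas scaling by library size alone, the basis of CPM without TMM and close to that of FPKM, put it at -0.23. With library size alone 2 of the 10 genes rose (Atg5 and Sqstm1), 6 fell, Map1lc3b joining the other 5, and Tfeb and Map1lc3a passed the double threshold downward. Over all 12701 genes tested, 2806 rose and 5826 fell under that scaling, against 4122 and 4007 with TMM. By the double threshold 846 of them were up-regulated and 1732 down-regulated, against 1130 and 1169 with TMM. The 3 genes whose call or direction changed were Gabarap, Becn1 and Map1lc3b. The directions of the other 7 were the same under both scalings. On the FPKM scale 2 of the 10 were higher and 7 lower in every TgAPPsweOCN;Ai9 library than in any control library, so that 9 of 10 showed no overlap, where 24.0% of all genes tested were higher, 48.3% lower and 72.3% either.

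**Figure D1:**
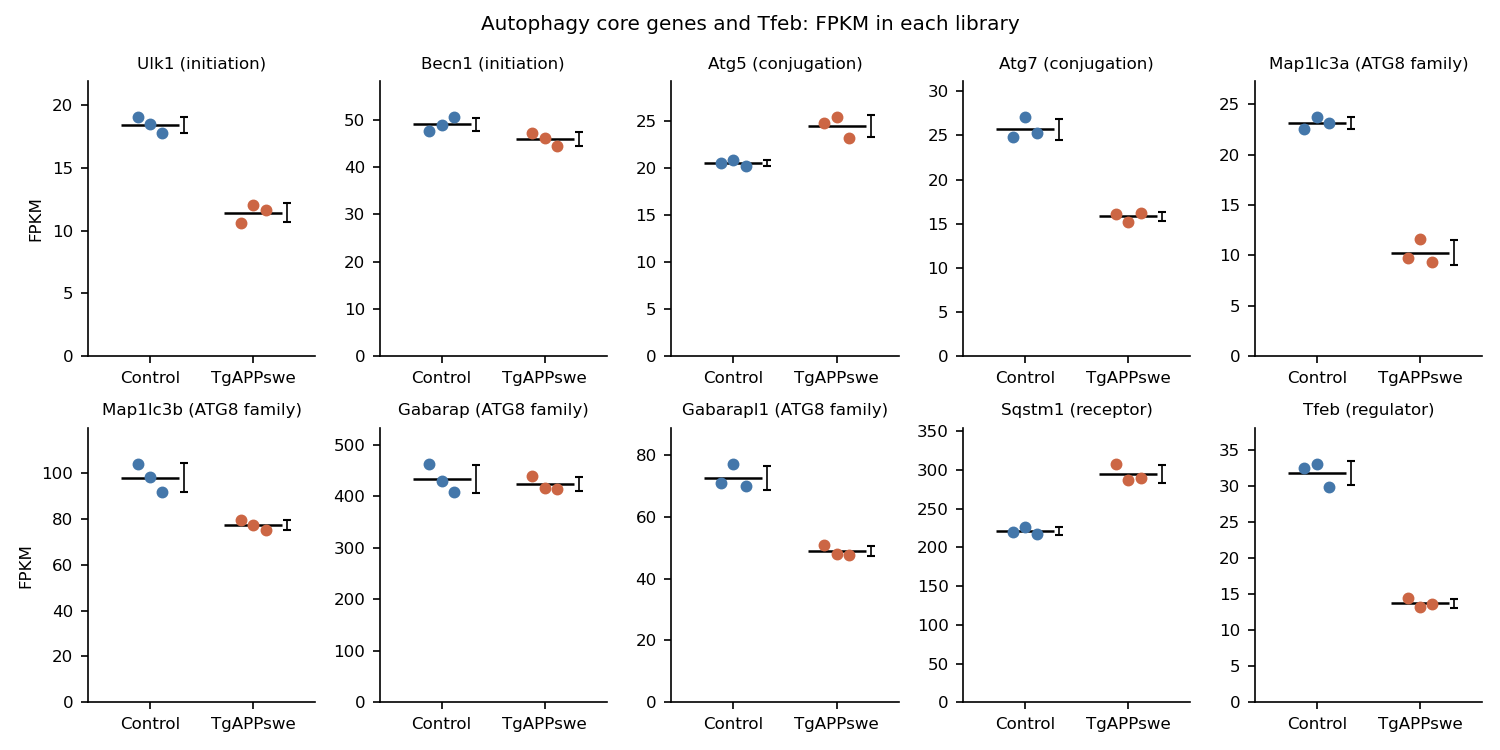
FPKM of each of the 10 genes in each library, 1 panel per gene, with points for the 3 control (blue) and 3 TgAPPsweOCN;Ai9 (red, axis label TgAPPswe) libraries, a line for the mean and a bar beside it for ± SD. Every panel has its own vertical axis starting at 0, and Gabarap is the gene whose 2 groups overlap.

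Ulk1 encodes the kinase that starts autophagosome formation and is restrained by mTORC1. The gene (Entrez 22241, chr5:110784489-110810120 in GRCm38) was at 19.03, 18.5 and 17.7 FPKM in the 3 control libraries and at 10.6, 12.1 and 11.6 in the 3 TgAPPsweOCN;Ai9 libraries. Every TgAPPsweOCN;Ai9 value lay below every control value. Ulk1 fell, with a log2 fold change of -0.47 (SE 0.0611, edgeR adjusted p = 0.000193), or 0.723 of the control level.

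Becn1 (Entrez 56208, chr11:101288258-101302286) encodes Beclin 1, a subunit of the PI3-kinase complex. Its FPKM was 47.7, 48.9 and 50.6 in control and 47.2, 46.2 and 44.5 in TgAPPsweOCN;Ai9 libraries, 49.1 ± 1.42 against 46.0 ± 1.4 (mean ± SD, n = 3). The groups did not overlap on the FPKM scale, yet the log2 fold change with TMM was 0.12 (95% interval -0.01 to 0.25, edgeR adjusted p = 0.0896), so that scale and the fit pointed in opposite directions and no change was called. Scaled by library size alone, the log2 fold change was -0.09. Becn1 had fractional counts in all 6 libraries, meaning that some of its reads were shared out among transcripts of more than 1 gene. The FPKM ratio of Becn1 to Ulk1, which no scaling of libraries can move, was 2.51 to 2.85 in control and 3.82 to 4.47 in TgAPPsweOCN;Ai9 libraries.

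The conjugation pair moved in opposite directions. Atg5 (Entrez 11793, chr10:44268322-44364299) encodes the protein that is joined to ATG12 and then, with ATG16L1, directs ATG8 proteins onto membranes. Its values were 20.5, 20.8 and 20.1 FPKM in control libraries and 24.8, 25.4 and 23.1 in TgAPPsweOCN;Ai9 libraries, with no overlap. Atg5 rose with a log2 fold change of 0.44 (SE 0.0581, edgeR adjusted p = 0.0002), and with library size alone the log2 fold change was 0.23.

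Atg7 (Entrez 74244, chr6:114643127-114860604) encodes the E1-like enzyme that activates both ATG12 and the ATG8 proteins. Its values were 24.8, 27.1 and 25.2 FPKM in control libraries and 16.1, 15.2 and 16.2 in TgAPPsweOCN;Ai9 libraries, again with no overlap. Atg7 fell with a log2 fold change of -0.61 (SE 0.0662, edgeR adjusted p = 6.7e-05). In control libraries Atg5 was the lower of the pair, at 0.768 to 0.825 of the Atg7 level, and in TgAPPsweOCN;Ai9 libraries it was the higher, at 1.43 to 1.67 of it.

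The palindrome CACGTG, an E-box that TFEB and its relatives can bind, was looked for in RefSeq promoter windows of 300 bases (GRCm38.p6, 250 bases before to 50 after each annotated start), of which 10 belonged to 8 of these genes and 3 of the 10 to Tfeb. Map1lc3a and Becn1 had no window in the table. CACGTG was in 2 of the 10 windows, those of Atg5 and Atg7, and in 7.15% of the 32851 promoters of the table. The longer TCACGTG, which contains CACGTG and was read on both strands, was in 1 of the 10, that of Atg7, and in 3.77% of all promoters. The 30 bases around each match are given 5′ to 3′ on the plus strand with CACGTG in capitals, because the windows of the conjugation pair, which moved in opposite directions, held the only matches among the 10.
Atg5: agggcggagcgcttgcCACGTGgtcttggt
Atg7: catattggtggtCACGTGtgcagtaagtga
The Atg5 stretch is chr10:44268309-44268338, with the E-box 14 bases before an annotated start. The Atg7 stretch is chr6:114670952-114670981, with the E-box 132 bases before an annotated start that lies 27969 bases inside the gene. Atg7 had no other window, so the 5′ end of that gene was not searched. Such a match describes letters in a window and is not a measured binding site.

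Among the ATG8 genes, which encode the small proteins attached to the autophagosome membrane, Map1lc3a and Gabarapl1 fell, Gabarap rose by TMM and Map1lc3b did not pass the test. Map1lc3a (Entrez 66734, chr2:155276364-155278073), encoding LC3A, was at 22.5, 23.7 and 23.1 FPKM in control libraries and 9.76, 11.7 and 9.37 in TgAPPsweOCN;Ai9 libraries. These were the lowest TgAPPsweOCN;Ai9 levels of the 10 genes on average, and their coefficient of variation was 11.9%. The log2 fold change was -0.96 (SE 0.0925, 95% interval -1.17 to -0.74, edgeR adjusted p = 3.26e-05), an interval that includes the fold threshold.

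Map1lc3b (Entrez 67443, chr8:121590438-121598760) encodes LC3B, the form most often used as a marker of autophagosomes. Its FPKM was 104, 98.2 and 91.5 in control and 79.5, 77.0 and 74.9 in TgAPPsweOCN;Ai9 libraries, without overlap. The log2 fold change with TMM was -0.13 (95% interval -0.28 to 0.02, edgeR adjusted p = 0.124), and with library size alone it was -0.34 (adjusted p = 0.0013). The call for Map1lc3b therefore turned on the scaling while its direction did not.

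Gabarap (Entrez 56486, chr11:69991370-69994949) was the most abundant of the 10 genes per length. It was at 463, 429 and 408 FPKM in control libraries and 439, 417 and 415 in TgAPPsweOCN;Ai9 libraries, and the groups overlapped (exact permutation test over libraries, two-sided, p = 0.7). With TMM the log2 fold change was 0.18 (SE 0.0681, edgeR adjusted p = 0.0433), and with library size alone it was -0.03 (adjusted p = 0.644), so its direction turned with the scaling. With RLE size factors, another scaling to the bulk of the genes, it was 0.19 (adjusted p = 0.0368), and in DESeq2 it was 0.20 (adjusted p = 0.0198). It also missed the threshold when any 1 of 4 libraries was left out, with adjusted p between 0.0786 and 0.18 (without control replicate 2 or 3, or TgAPPsweOCN;Ai9 replicate 1 or 3). For a difference with no overlap, 3 libraries against 3 can give no exact permutation p below 0.1.

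Gabarapl1 (Entrez 57436, chr6:129533192-129542331) encodes a close relative of GABARAP. It was at 70.8, 77.1 and 69.8 FPKM in control libraries and 50.7, 48.0 and 47.8 in TgAPPsweOCN;Ai9 libraries, with every TgAPPsweOCN;Ai9 library below every control library. Gabarapl1 fell with a log2 fold change of -0.36 (SE 0.065, edgeR adjusted p = 0.00139).

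The make-up of the ATG8 pool was then taken as each gene's share of the summed FPKM of 5 ATG8 genes within a library, a quantity that does not depend on how libraries are scaled to each other. Gabarapl2 completed the family. The sum was 691 ± 33.1 FPKM in control libraries and 624 ± 21.3 in TgAPPsweOCN;Ai9 libraries. Gabarap took 62.7% ± 1.32 of it in control and 67.9% ± 0.240 in TgAPPsweOCN;Ai9 libraries, and Gabarapl2 took 9.25% ± 0.690 and 10.3% ± 0.393. Both shares were larger in every TgAPPsweOCN;Ai9 library than in any control library. The remaining shares were smaller, Map1lc3b at 14.2% ± 0.223 and 12.4% ± 0.143, Gabarapl1 at 10.5% ± 0.645 and 7.82% ± 0.0165, and Map1lc3a at 3.35% ± 0.204 and 1.65% ± 0.217. The ratio of Map1lc3b to Map1lc3a was 3.96 to 4.61 in control and 6.60 to 8.15 in TgAPPsweOCN;Ai9 libraries, and that of Gabarap to Map1lc3b was 4.37 to 4.46 and 5.41 to 5.54. The ATG8 pool was thus weighted more towards Gabarap and Gabarapl2, and less towards LC3A, LC3B and Gabarapl1 transcripts, in TgAPPsweOCN;Ai9 libraries. Shares of 1 sum are tied to each other, and no test was made on them.

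**Figure D2:**
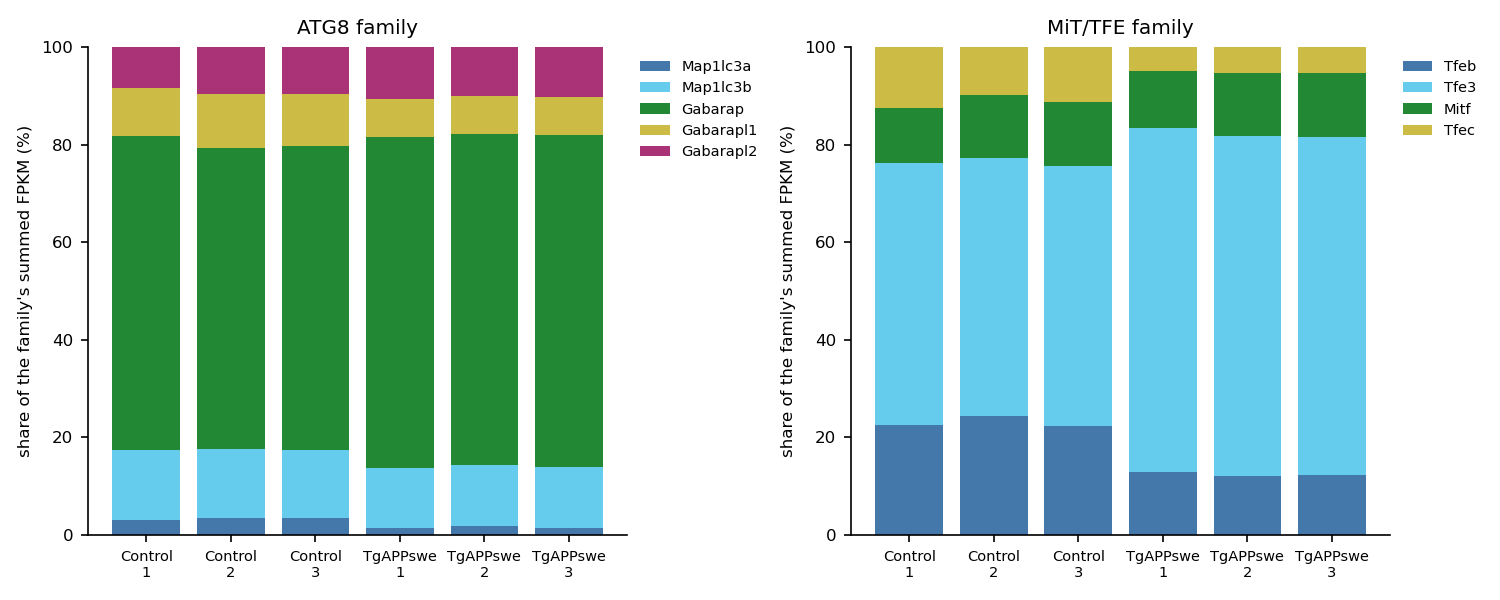
Share in percent of the summed FPKM of the ATG8 family (left) and of the MiT/TFE family (right) taken by each gene in each of the 6 libraries. Gabarap and Tfe3 take a larger share, and Tfeb and Map1lc3a a smaller one, in every TgAPPsweOCN;Ai9 library than in any control library.

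Sqstm1 (Entrez 18412, chr11:50200152-50210820) had the largest rise of the 10. It encodes p62, a receptor that binds ubiquitinated cargo and ATG8 proteins and is itself degraded by autophagy, so that its protein can accumulate with no change in its mRNA. Only the mRNA was measured here. Sqstm1 was at 220.2, 227 and 217 FPKM in control libraries and 308, 287 and 289 in TgAPPsweOCN;Ai9 libraries. The lowest TgAPPsweOCN;Ai9 value stood above the highest control value. The log2 fold change was 0.63 (SE 0.0608, 95% interval 0.49 to 0.77, edgeR adjusted p = 3.14e-05), a fold of 1.55, and 0.42 with library size alone. The FPKM ratio of Sqstm1 to Map1lc3b was 2.12 to 2.37 in control and 3.72 to 3.87 in TgAPPsweOCN;Ai9 libraries.

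Tfeb (Entrez 21425, chr17:47737037-47792416) had the lowest log2 fold change of the 10, though by less than its SE from that of Map1lc3a, which was the lower of the pair without control replicate 1 (-0.98 against -0.96) or TgAPPsweOCN;Ai9 replicate 2 (-1.04 against -0.93). Its values were 32.5, 33.1 and 29.9 FPKM in control libraries and 14.5, 13.2 and 13.6 in TgAPPsweOCN;Ai9 libraries, with no overlap. The log2 fold change was -0.98 (SE 0.0737, 95% interval -1.15 to -0.81, edgeR adjusted p = 7.73e-06), 0.508 of the control level. It lay just short of the study's fold threshold with TMM and past it, at -1.19, with library size alone.

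Tfeb belongs to the MiT/TFE family with Tfe3, Mitf and Tfec, which bind the same E-box motifs. The family's summed FPKM was 138 ± 5.06 in control and 111 ± 1.04 in TgAPPsweOCN;Ai9 libraries. Tfeb took 23.1% ± 1.16 of the sum in control and 12.4% ± 0.465 in TgAPPsweOCN;Ai9 libraries, whereas Tfe3 took 53.3% ± 0.433 and 69.9% ± 0.606. Tfec, a member of the family found mainly in myeloid cells, took 11.2% ± 1.32 and 5.18% ± 0.293, and the share of Mitf, 12.4% ± 1.04 and 12.5% ± 0.689, overlapped between the genotypes. The family sum was made up more by Tfe3 and less by Tfeb and Tfec in TgAPPsweOCN;Ai9 libraries. For each gene alone, Tfec fell (log2 fold change -1.21, SE 0.113, edgeR adjusted p = 2.62e-05), Mitf was at -0.09 (adjusted p = 0.227), and Tfe3 rose by TMM (0.30, adjusted p = 0.00166) but not with library size alone (0.09, adjusted p = 0.17). Mitf fell with library size alone (-0.30, edgeR adjusted p = 0.00314), and its FPKM was lower in every TgAPPsweOCN;Ai9 library than in any control library. The ratio of Tfeb to Tfe3 was 0.417 to 0.462 in control and 0.172 to 0.183 in TgAPPsweOCN;Ai9 libraries.

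**Figure D3:**
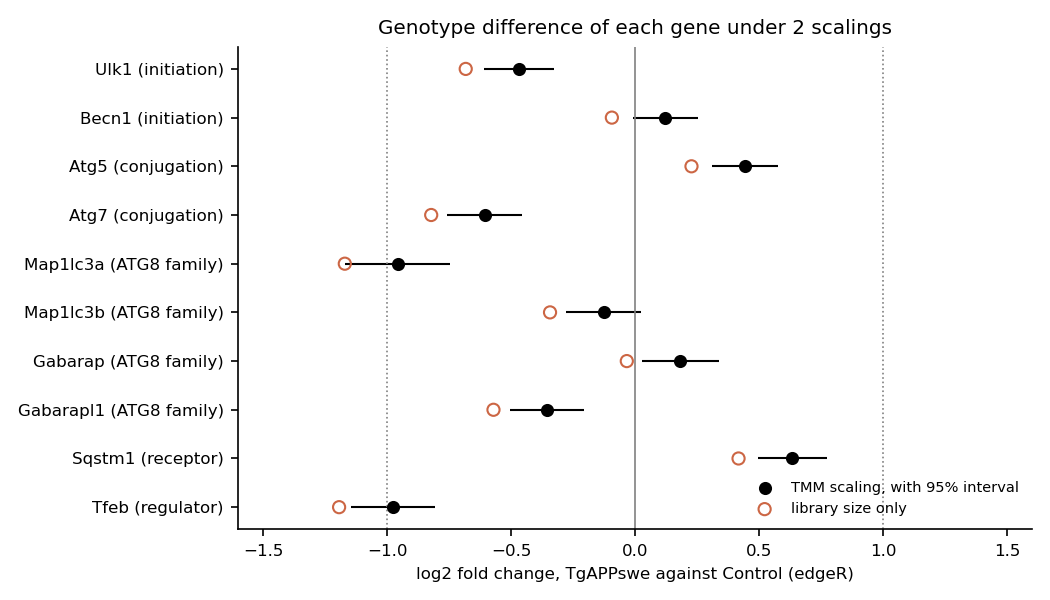
Log2 fold change of each of the 10 genes, TgAPPsweOCN;Ai9 against control, with its 95% interval from edgeR with TMM, (black) beside the value with library size alone (open circles), and dotted lines at the fold threshold. Intervals of Becn1 and Map1lc3b include 0, and Gabarap and Becn1 change side with library size alone.

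Per length, the 10 genes kept the same order among the first 5 in both genotypes, Gabarap above Sqstm1, Map1lc3b, Gabarapl1 and Becn1. In control libraries Tfeb followed in place 6, before Atg7, Map1lc3a, Atg5 and Ulk1. In TgAPPsweOCN;Ai9 libraries Atg5 held place 6, before Atg7, Tfeb, Ulk1 and Map1lc3a, so Tfeb stood in place 8 and Atg5 moved up from place 9. All neighbours in the order were separated without overlap within a genotype except Ulk1 and Map1lc3a in TgAPPsweOCN;Ai9 libraries. Ulk1, the lowest of the 10 in control, was nevertheless at percentile 66.6 of the tested genes by control FPKM, and Gabarap was at percentile 98.8.

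The genes whose pattern over the 6 libraries lay nearest to that of Sqstm1, by the root mean square difference of log2 CPM centred on the control mean among 11868 genes, were Capg (0.0104), which caps actin filaments, Ube2n (0.0164), a ubiquitin-conjugating enzyme, and Bloc1s2 (0.0216), a subunit of complexes that sort and position lysosomes. The 3 genes nearest to Tfeb were Izumo4 (0.0347), Fance (0.0418), a Fanconi anaemia DNA-repair gene, and BC037034 (0.0479). The neighbours were chosen on the same values, so their likeness is a description.

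The other genes of the pathway included both rises and falls. Of 54 further autophagy genes tested, 18 rose, 21 fell and 15 did not pass, with a median log2 fold change of -0.03. With library size alone 9 rose and 29 fell, and the median was -0.25. Over all genes tested 32.5% rose and 31.5% fell with TMM, and 22.1% rose and 45.9% fell with library size alone, the shares against which the counts of each list below stand. No test was made of any list against them. Of the 4 other ULK complex genes 2 fell and 2 did not pass, and with library size alone 3 fell, the larger fall with TMM being that of Atg101, which stabilises the complex (FPKM 22.2 in control and 14.4 in TgAPPsweOCN;Ai9 libraries, log2 fold change -0.41, edgeR adjusted p = 0.00107). Of 7 genes of the PI3-kinase complex and its regulators, 4 fell and 1 rose, and with library size alone 5 fell and the other 2 did not pass. Pik3c3, the catalytic subunit, fell from 16.02 to 9.79 FPKM (-0.49, edgeR adjusted p = 0.00072). Ambra1, a scaffold that binds Beclin 1, was at 0.32 with TMM (adjusted p = 0.00399) and 0.10 with library size alone (adjusted p = 0.256).

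Among 9 genes of phagophore growth tested, 1 rose, 3 fell and 5 did not pass, and with library size alone 1 rose and 6 fell. Wdr45, which encodes the PI3P-binding protein WIPI4, fell most, from 19.3 to 7.13 FPKM (-1.31, SE 0.0989, edgeR adjusted p = 7.77e-06). Its counts were fractional in the 3 control libraries and whole in the TgAPPsweOCN;Ai9 libraries, and the part of read sharing in its fall was not tested. Vmp1, a lipid-moving membrane protein of the endoplasmic reticulum, rose from 49.0 to 68.4 FPKM (0.70, edgeR adjusted p = 0.000138). Of the 9 conjugation genes outside the 10, 4 rose and 3 fell, and with library size alone 1 rose and 4 fell. Atg16l2, a relative of ATG16L1, fell from 8.45 to 2.54 FPKM (-1.59, SE 0.106, edgeR adjusted p = 3.94e-06), and Atg4a, a protease that trims ATG8 proteins, rose from 6.60 to 10.4 FPKM (0.88, edgeR adjusted p = 0.000129). Gabarapl2 had a log2 fold change of 0.23 with TMM (adjusted p = 0.0312) and 0.01 with library size alone (adjusted p = 0.922).

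Sqstm1 was not alone among receptors in rising. Of 14 other cargo receptors tested, 7 rose, 5 fell and 2 did not pass, with a median of 0.16 that turned to -0.05 with library size alone, where 5 rose and 6 fell. Stbd1, a receptor for glycogen, rose from 1.73 to 3.86 FPKM (log2 fold change 1.37, edgeR adjusted p = 7.54e-05), and Optn, a receptor for mitochondria and bacteria, rose from 8.30 to 14.3 FPKM (1.05, edgeR adjusted p = 2.43e-05). Calcoco1, a receptor for endoplasmic reticulum and Golgi, fell from 25.4 to 11.5 FPKM (-0.93, edgeR adjusted p = 5.35e-06). Of 10 fusion genes, 4 rose and 4 fell, and with library size alone 2 rose and 5 fell. Tecpr1, which acts where autophagosomes meet lysosomes, fell from 33.7 to 14.3 FPKM (-1.07, edgeR adjusted p = 8.42e-06), and Plekhm1, an adaptor of late endosomes and lysosomes, rose from 51.1 to 77.6 FPKM (0.82, edgeR adjusted p = 2.07e-05).

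**Figure D4:**
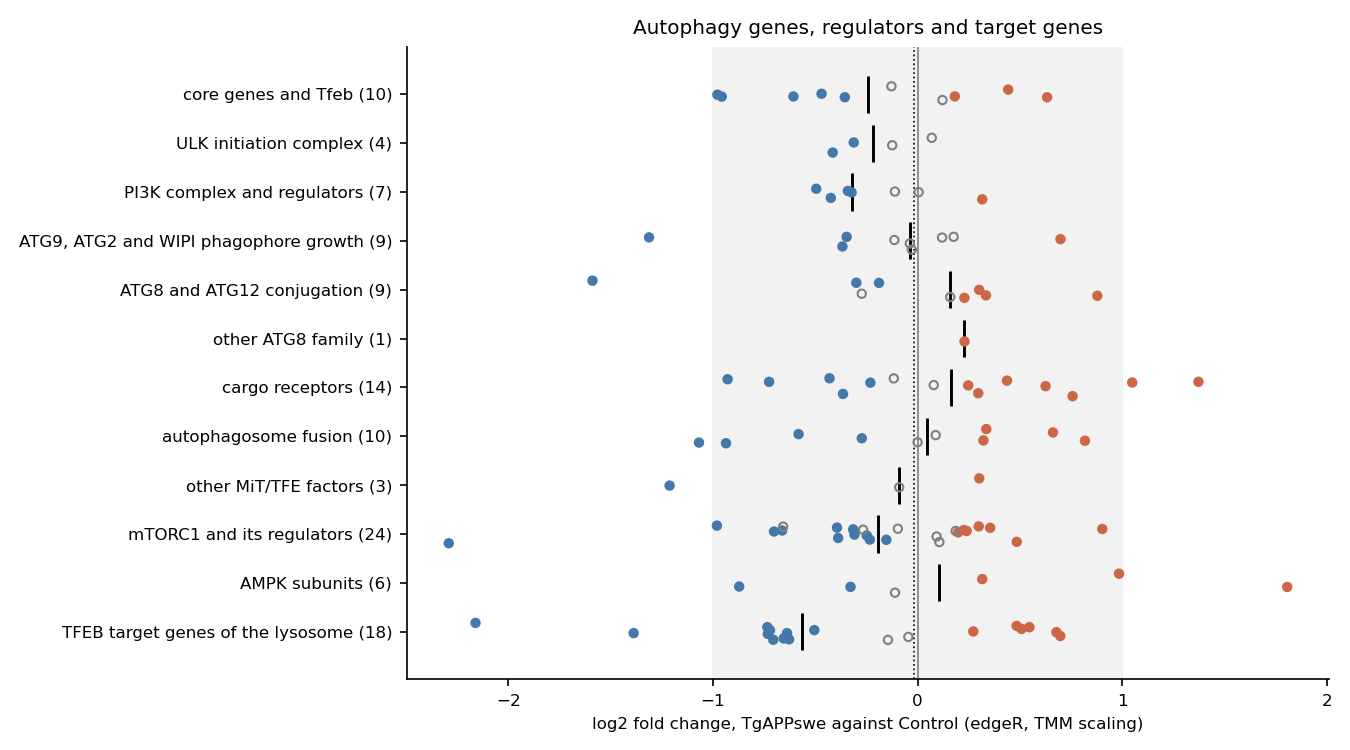
Log2 fold change of every tested gene of each autophagy, regulator and target list, TgAPPsweOCN;Ai9 against control by edgeR with TMM, 1 row per list with the number tested. Blue points fell, red points rose, open points did not pass an adjusted p of 0.05, black bars are list medians, the dotted line is the median of all genes tested and the shaded band lies inside the fold threshold. Rises and falls are both present in most rows, and the median of the lysosomal TFEB target genes, -0.57, lies lowest among the lists of 4 or more genes.

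The genes of kinases that act on ULK1 and TFEB also included rises and falls. Of 24 genes of mTORC1 and its regulators, which include activators and inhibitors, 7 rose and 11 fell, against 32.5% and 31.5% of all genes tested, and with library size alone 1 rose and 14 fell. Deptor, an inhibitory mTOR partner, fell from 4.53 to 0.807 FPKM (log2 fold change -2.29, SE 0.111, edgeR adjusted p = 7.15e-07), and Sesn2, a stress-induced inhibitor of mTORC1, rose from 9.30 to 15.0 FPKM (0.90, edgeR adjusted p = 3.08e-05). Of 6 AMPK subunits tested, 3 rose and 2 fell, and with library size alone 2 rose and 3 fell. Prkag2 fell from 9.72 to 4.75 FPKM (-0.87, edgeR adjusted p = 1.69e-05). Prkaa2 was called up-regulated (1.81, SE 0.393, edgeR adjusted p = 0.00358) on 7, 7 and 3 counts in control and 24, 17 and 17 in TgAPPsweOCN;Ai9 libraries, close to the floor of 3 counts.

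Among 18 lysosomal genes known as TFEB targets, 6 rose, 10 fell and 2 did not pass, with a median of -0.57, where 32.5% of all genes tested rose and 31.5% fell, and 5 rose and 12 fell with library size alone. The 2 that passed the double threshold were Gpnmb, a lysosomal and melanosomal membrane glycoprotein, at 1222 FPKM in control libraries and 236 in TgAPPsweOCN;Ai9 libraries (log2 fold change -2.16, SE 0.138, edgeR adjusted p = 3.13e-06), and Sgsh, a heparan sulfate sulfatase, at 33.2 and 10.9 FPKM (-1.39, SE 0.0861, edgeR adjusted p = 2.68e-06). Sgsh had fractional counts in 5 libraries. Atp6v0d1, a subunit of the proton pump of lysosomes, rose from 116 to 162 FPKM (0.70, edgeR adjusted p = 1.82e-05), so the direction was not uniform within the list.

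Cell type markers also differed between the genotypes. Of the 15 myeloid markers 7 rose, 5 fell and 3 did not pass, among them Adgre1, the macrophage antigen F4/80, at 563 FPKM in control libraries and 1776 in TgAPPsweOCN;Ai9 libraries, and Mrc1, the mannose receptor, at 208 and 34.4 FPKM, both chosen after their values were seen. The 7 osteoclast markers summed to 37.1 to 58.6 FPKM in control libraries and 104 to 226 in TgAPPsweOCN;Ai9 libraries, and of 6 tested 3 rose and 2 fell. Most of that sum in TgAPPsweOCN;Ai9 libraries was Mmp9, a matrix protease, at 1.88 FPKM in control libraries on average and 121 in TgAPPsweOCN;Ai9 libraries, and without it the sums overlapped, at 34.4 to 57.2 and 34.3 to 56.6 FPKM. Within those overlapping sums single markers moved in opposite directions. Acp5, an acid phosphatase, went from 3.49, 5.62 and 4.93 FPKM to 46.1, 22.3 and 35.7, and Atp6v0d2, a proton pump subunit, from 23.3, 43.6 and 37.8 to 5.05, 5.83 and 5.23. Mmp9, Acp5 and Atp6v0d2 were also chosen after their values were seen. Neutrophil markers summed to 13.6 to 54.3 and 19.1 to 52.2 FPKM, lymphocyte markers to 4.59 to 5.89 and 4.52 to 6.16, and endothelial markers to 6.33 to 8.29 and 5.86 to 6.71. Of those tested, 1 of 8 neutrophil markers rose, 1 of 3 lymphocyte markers rose and 1 fell, and 1 of 6 endothelial markers rose and 3 fell, the endothelial median being -0.77. Of the 10 lymphocyte markers 2 (Cd3g and Ncr1) had no entry in the count table, and none of the markers with an entry was at 0 in every library. The stromal and osteoblast-lineage markers gave 3 rises, 2 falls and 9 that did not pass among 14 tested. With library size alone 3 stromal and osteoblast-lineage markers rose and 4 fell, 7 myeloid markers rose and 6 fell, and 3 osteoclast markers rose and 3 fell, while the neutrophil, lymphocyte and endothelial counts were as with TMM. The part of these shifts in the changes of Ulk1, Atg5, Atg7, the ATG8 genes, Sqstm1 and Tfeb was not tested.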

How the data were processed

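Total RNA of the sorted cells was made into libraries and sequenced on a DNBSEQ platform. The submitters' processing notes name HISAT2 2.0.4, Bowtie2 2.2.5, RSEM 1.2.12, DESeq2 1.4.5 and the build mm10, without their order. The authors deposited estimated counts per gene, with a fractional value for 13.3% to 14.4% of genes in a library, and FPKM per gene. A further table repeats the FPKM beside the authors' own log ratio and p-value of the comparison, and was not used.

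Estimated counts were tested with edgeR 4.0.16 in R 4.3.3 (filterByExpr, TMM, quasi-likelihood F test, genotype as the only term), with Benjamini-Hochberg adjustment over 12701 genes. The planned test assumed whole counts, so the estimated counts were rounded first. The biological coefficient of variation was 9.85%. Tested on simulated data for 12580 genes of this comparison, 98 of 98 genes changed by a log2 of 1.5 and 57 of 102 changed by 0.5 were recovered, and 13 unchanged genes were called. That simulation changed 200 genes, whereas 64.0% of the genes tested in the real data were called, so its rates may not carry over. Levels between genes were compared on FPKM only, and confidence intervals are at 95%. Floors cover counting error only. Alternatives were DESeq2 1.42.0, RLE or library size scaling, other filters, a replicate block, limma 3.58.1 on log2(FPKM + 1) or log2(FPKM + 0.1), and leaving out each library. Exact permutation tests used scipy 1.17.1.

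The 10 genes, App, and, from each list of autophagy genes, regulators and TFEB targets, the genes past both thresholds and the largest rise and fall with an adjusted p of at most 0.05 were named, with the 3 genes nearest in pattern to the member that rose most and to the one that fell most. Marker lists were given by counts and sums, with a few markers chosen after their values were seen. The members and lists were chosen with earlier results of these data known. Gene coordinates and promoter windows are from RefSeq on GRCm38.p6, the assembly of mm10. Atg9b, Calcoco2 and Prkag3 were below the filter.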

Additional observations from a re-analysis of the deposited data

How the results depend on the processing

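Of 150 values of the 10 genes under 15 alternatives, 132 kept direction and call, 8 changed direction, 5 newly passed the threshold and 5 kept direction but no longer passed. Gabarap also lost its call wherever its direction changed, and passed in 6 of its 15 alternatives. Direction changed for Becn1, from 0.12 to -0.0938 with library size only, -0.0922 in limma on log2(FPKM + 1) with or without a filter and -0.0939 on log2(FPKM + 0.1), and for Gabarap, to -0.0336, -0.0321 and -0.0322 under the same settings. The count of down-regulated genes went from 0 to 2 (Tfeb and Map1lc3a) with library size only and in each limma setting, and was 0 to 1 when 1 library was left out: Tfeb reached -1.04 without control replicate 3 and -1.03 without TgAPPsweOCN;Ai9 replicate 1, and Map1lc3a -1.04 without TgAPPsweOCN;Ai9 replicate 2. Over all genes tested, 1169 of 12701 were down-regulated in the main fit and 1732 of 12701 with library size only. In limma they were 843 of 11006 on log2(FPKM + 1), 1283 of 11006 on log2(FPKM + 0.1) and 842 of 17451 without a filter. With 1 library left out they were 1125 to 1262 of 12832 to 12889. Library size scaling and FPKM do without TMM's centring, and the cause of the changes without 1 library was not tested. Gabarap was at 0.18 without a filter (adjusted p = 0.0572). Map1lc3b was at -0.34 with library size only and passed at -0.19 without control replicate 3 (adjusted p = 0.047). For the other 7 genes every alternative kept direction and an adjusted p of at most 0.05. The autophagy genes that rose went from 18 to 9 with library size only and in limma, and the regulators that rose from 11 to 3 with library size only and 2 to 4 in limma. Same-numbered libraries of the genotypes had deviations correlated at 0.0127, 0.00664 and 0.141, so a number was not taken to pair them. With a replicate block 3 of the 10 genes rose, 5 fell and 0 were down-regulated, and of the other named genes Gabarapl2 alone lost its call (0.22, adjusted p = 0.0599). Gabarapl2 also lost it without control replicate 1 or 3 or TgAPPsweOCN;Ai9 replicate 1. The simulation held no changes as small as those of Becn1, Map1lc3b and Gabarap, so it does not show how often such changes are called.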
